A study of Mus musculus with 12 samples.

Results

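The pyruvate dehydrogenase (PDH) kinases and phosphatases decide how much pyruvate a mitochondrion turns into acetyl-CoA. Their 8 genes were followed in muscle of tumour-bearing mice and in cultured myotubes kept in tumour cell medium. The genes were chosen by name, as the 4 kinases Pdk1 to Pdk4, the catalytic phosphatases Pdp1 and Pdp2, the phosphatase regulatory subunit Pdpr, and Pdha1, the E1 alpha subunit that both enzyme classes act on. They are 8 of the 20194 genes in the RNA table, and 19 of the 38244 chromatin peaks carry their names. All 8 genes and all 19 peaks passed the filters on low values.

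RNA-seq and ATAC-seq were made, with 3 libraries in each of 4 groups. RNA-seq of polyA RNA compared muscle of C57BL/6 mice with a subcutaneous injection of 500000 Lewis lung carcinoma cells (LLC) and muscle of mice injected with PBS. The labels date tissue collection to day 22 and describe the LLC mice as a model of cachexia, the wasting of muscle and fat in cancer; they do not say which muscle was taken. ATAC-seq, which marks open chromatin by transposase insertion, compared C2C12 myotubes exposed for 24 hours to C26 medium, taken from Colon-26 colon carcinoma cultures, with control myotubes. C2C12 is 1 mouse myoblast line of C3H origin. All of its cultures were differentiated in 2% horse serum and are described as kept in medium with 10% FBS; their labels give the cell type as myoblast. The tumours and the assays therefore differ between the muscle and the myotubes, and no library of 1 assay has a partner in the other. Whether the libraries of a group stem from different animals or wells is not stated, so each p reflects the scatter of 3 libraries that may be technical repeats.

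The PDH complex links glycolysis to the citric acid cycle and commits carbohydrate carbon to oxidation. PDH kinases phosphorylate Pdha1 and switch the complex off, and PDH phosphatases remove the phosphate and switch it on again. In skeletal muscle Pdk2 and Pdk4 are the main kinase isoforms; Pdk4 is known to be induced by fasting, glucocorticoids and fatty acids through FOXO factors, the glucocorticoid receptor and PPAR receptors, and its induction spares glucose while fat is burned.

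The stretches of DNA in front of the Pdk4 and Pdk2 genes are shown because these isoforms dominate the kinase transcripts of the muscle libraries and part ways in the results. Each is the 250 bases before the annotated start, 5′ to 3′ on the gene's own strand, from RefSeq (GRCm38.p6). The Pdk4 window is chr6:5496279-5496528 and the Pdk2 window is chr11:95041372-95041621, both on the minus strand. Capitals mark the E-box, CANNTG, a site bound by basic helix-loop-helix proteins such as MyoD.
Pdk4: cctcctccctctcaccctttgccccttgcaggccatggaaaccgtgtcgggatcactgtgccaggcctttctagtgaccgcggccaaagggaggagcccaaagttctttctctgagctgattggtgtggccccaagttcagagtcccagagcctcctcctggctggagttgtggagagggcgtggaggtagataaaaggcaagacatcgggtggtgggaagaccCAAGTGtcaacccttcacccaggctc
Pdk2: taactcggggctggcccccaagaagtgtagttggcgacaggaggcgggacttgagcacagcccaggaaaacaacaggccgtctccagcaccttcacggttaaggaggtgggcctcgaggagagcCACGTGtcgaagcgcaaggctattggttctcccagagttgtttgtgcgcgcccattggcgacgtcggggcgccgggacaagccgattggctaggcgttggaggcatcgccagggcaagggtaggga

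All 250 bases of both windows lay inside an ATAC peak of the myotubes. The E-box of Pdk4 reads CAAGTG and begins 26 bases before the start, and that of Pdk2 reads CACGTG and begins 126 bases before it. A promoter sequence was at hand for 7 of the 8 genes, and 6 of those 7 held an E-box, as did 66.2% of 32851 mouse promoter windows of the same length. The exception was Pdk3. CACGTG also occurred in front of Pdp2 and Pdpr, CAGCTG in front of Pdk1 and CACATG in front of Pdha1. The other 4 motifs searched on both strands matched in 0 of the 7 windows, which are those at the starts used in the RNA table. These were the FOXO core GTAAACA, held by 3.17% of all windows, the nuclear receptor core AGGTCA, held by 14.0%, the glucocorticoid receptor core AGAACA, held by 16.1%, and the AP-1 site TGANTCA, held by 6.75%. A further annotated start of Pdk1, with no ATAC peak over its window, had 2 E-boxes and 2 matches of the glucocorticoid receptor core, and a further start of Pdk2 had 0 matches of any motif. In the 7 windows the E-box alone matched, so no match overlapped another motif. A match is a description of letters, and a missing match says only that these letters are not in this window.

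The muscle libraries held 28.7, 29.1 and 32.5 M read ends in genes for LLC 1 to 3 and 25.7, 31.9 and 29.4 M for PBS 1 to 3. Their values are FPKM, read ends scaled for transcript length and library depth, which can be compared between genes. Markers of skeletal muscle were high in all 6 libraries, with 6 of 6 genes found and a summed level of 27465 to 32237 FPKM in LLC and 23078 to 30209 FPKM in PBS muscle. Libraries stood apart within both groups by markers of other tissues. Neutrophil and marrow markers summed to 5625, 9920 and 176 FPKM in LLC 1 to 3 and to 116, 5903 and 11231 FPKM in PBS 1 to 3. Keratins and loricrin of epidermis summed to 1132, 54.3 and 432 FPKM in LLC 1 to 3 and to 0.469, 5.92 and 96.3 FPKM in PBS 1 to 3. LLC 3 and PBS 1, with few marrow transcripts, also held the fewest erythroid and bone transcripts in their groups; the osteocalcin gene Bglap was at 0 in both. The ATAC libraries held 12.8, 14.4 and 18.2 M tags for C26 medium 1 to 3 and 11.2, 14.8 and 10.1 M for controls 1 to 3.

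Pdk4 was the gene of the set that differed most between LLC and PBS muscle. The gene (NM_013743, chr6:5483351-5496278 in mm10, minus strand) encodes the kinase that muscle makes when it turns from glucose to fat, and it stood at 154, 340.4 and 369.7 FPKM in LLC 1 to 3, against 33.6, 18.3 and 19.6 FPKM in PBS 1 to 3. The lowest LLC library was above the highest PBS library. LLC 1 lay well below the other two LLC libraries, and PBS 1 above the other two PBS libraries. The means were 288 ± 117 FPKM in LLC and 23.8 ± 8.47 FPKM in PBS muscle (SD, n = 3 each), a ratio of 12.1. Between 19028 and 51022 read ends per LLC library and between 2337 and 3929 per PBS library lay behind these values. On the log2(FPKM + 1) scale the difference was 3.49 (SE 0.41, 95% interval 2.49 to 4.50), the 10th largest positive difference and the 14th smallest p of the genes tested. The unadjusted limma p was 0.000157, and the limma p adjusted over all genes was 0.138, so Pdk4 did not pass the threshold of 0.05. In bulk samples more cells of a type and more RNA per cell cannot be told apart.

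Of the 8 genes 0 passed that threshold, as did 0% of the 12981 genes tested with limma. At an unadjusted limma p under 0.05 the count was 1 of 8, Pdk4, against 7.63% of all genes, of which 5.82% were higher and 1.82% lower in LLC muscle. EdgeR's quasi-likelihood test on recovered reads likewise called 0 genes at the adjusted threshold and 1140 of 15712 at an unadjusted p under 0.05, and gave Pdk4 a log2 difference of 3.51 with an adjusted p of 0.280. The LLC and PBS libraries did not overlap for 2 of the 8 genes, Pdk4 and Pdk1, both higher in LLC muscle. Among all genes tested 13.4% had groups without overlap, 9.5% with LLC higher and 3.94% with LLC lower. The Pdk4 difference was 3.26 without LLC 3 and 3.76 without PBS 1, the libraries poor in marrow transcripts. Leaving out LLC 1 gave 3.89, and the limma adjusted p stayed between 0.124 and 0.559 over all 6 such fits.

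**Figure D1:**
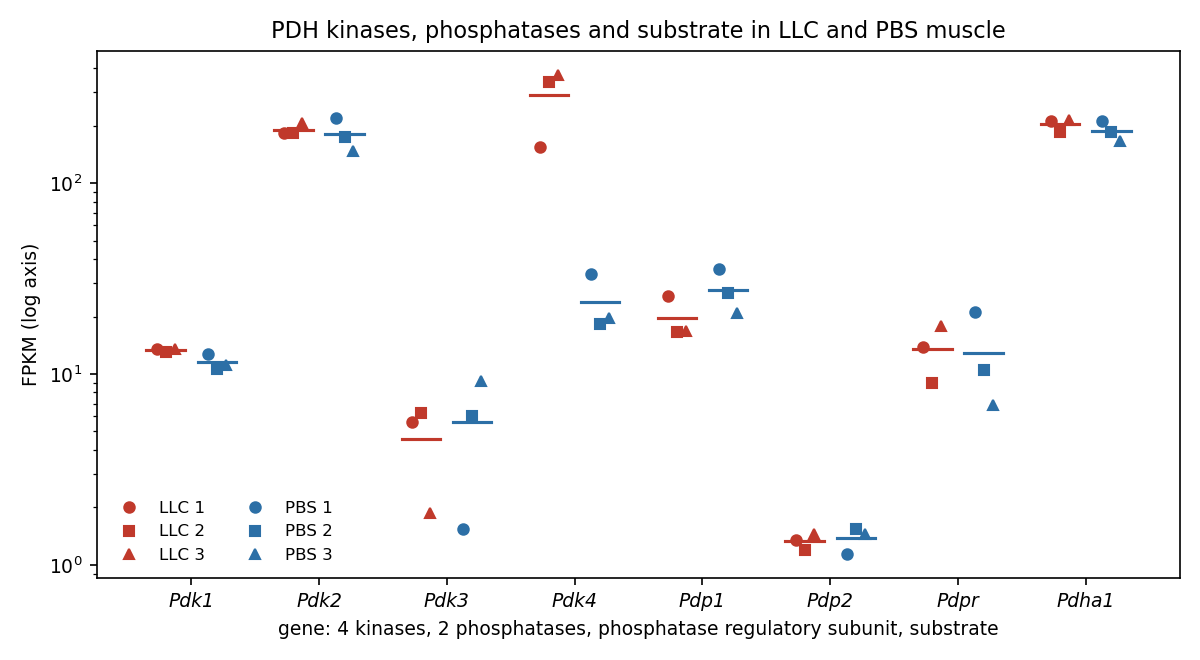
Level of each of the 8 genes in every muscle library, in FPKM on a log axis, with LLC libraries in red left of PBS libraries in blue; symbols give the library number and bars the group mean. Pdk4 is separated by the gap between 154 FPKM in its lowest LLC library and 33.6 FPKM in its highest PBS library, whereas Pdk2 and Pdha1 stay between 147 and 219 FPKM in all 6 libraries.

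Pdk2 (NM_133667, chr11:95026258-95041371, minus strand), the most widely expressed isoform, stood at 182, 184 and 206 FPKM in LLC 1 to 3, against 219, 175 and 147 FPKM in PBS 1 to 3. The LLC values lay inside the PBS range. Its log2 difference was 0.10 (SE 0.17, 95% interval -0.33 to 0.52), and the difference seen at Pdk4 lies outside that interval. Noncoding genes overlap the Pdk2 locus. Because reads of both strands were counted, their reads cannot be told from those of Pdk2 wherever exons overlap, which was not tested. The contrast between the isoforms was tested within each library as the log2 ratio of Pdk4 to Pdk2. The ratio averaged 0.50 ± 0.63 in LLC libraries and -2.90 ± 0.27 in PBS libraries (SD, n = 3 each), a difference of 3.40 (SE 0.40). A two-sided exact permutation test gave p = 0.10, the smallest value that 3 against 3 libraries allow.

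Pdk1 (NM_172665, chr2:71873224-71903858, plus strand), the isoform known as a target of the hypoxia-inducible factor, stood at 13.6, 13.0 and 13.6 FPKM in LLC 1 to 3, against 12.7, 10.6 and 11.2 FPKM in PBS 1 to 3. The groups did not overlap, but the gap was small: the log2 difference was 0.21 (SE 0.11) with an unadjusted limma p of 0.106 and an adjusted one of 0.828. Pdk3 (NM_145630, chrX:93764616-93832150, minus strand), an isoform best known from testis, stood at 5.61, 6.24 and 1.87 FPKM in LLC 1 to 3, against 1.54, 6.03 and 9.23 FPKM in PBS 1 to 3. Its groups overlapped fully, with a log2 difference of -0.14 (SE 0.62, 95% interval -1.65 to 1.38). The lowest Pdk3 values of each group were those of LLC 3 and PBS 1.

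**Figure D2:**
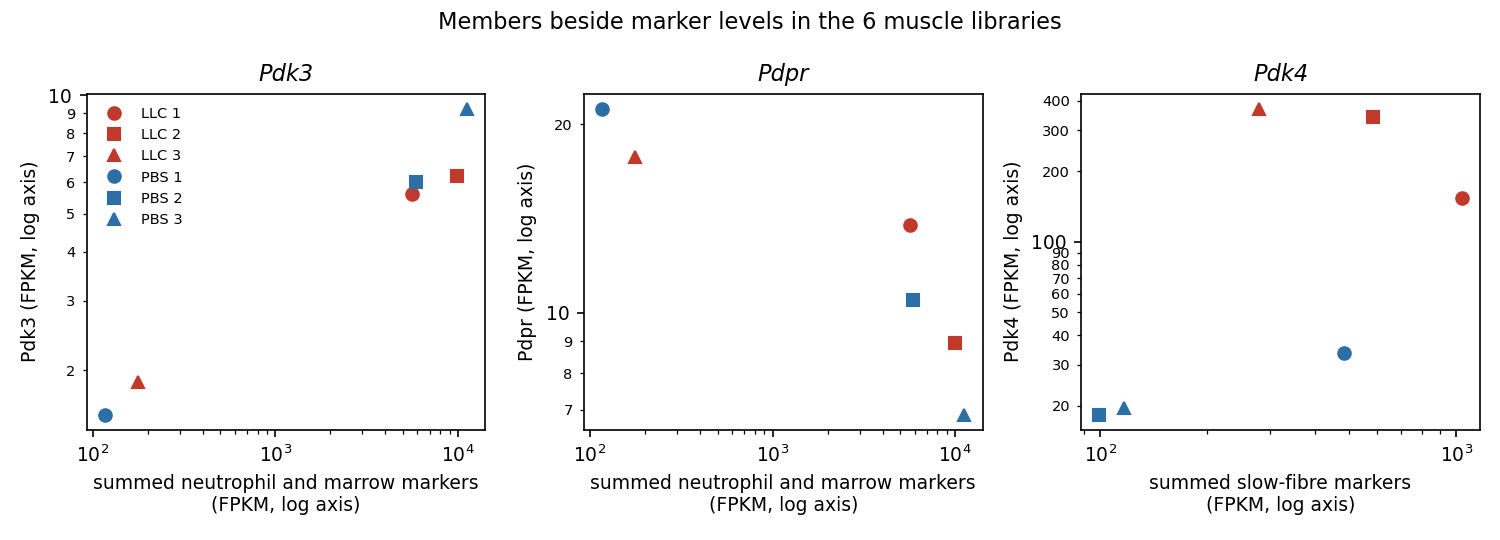
Pdk3 and Pdpr against the summed neutrophil and marrow markers, and Pdk4 against the summed slow-fibre markers, in FPKM on log axes, with 1 point per muscle library (LLC red, PBS blue). LLC 3 and PBS 1, at 176 and 116 FPKM of marrow markers, have the lowest Pdk3 and the highest Pdpr values, while Pdk4 is at least 154 FPKM in the LLC libraries and at most 33.6 FPKM in the PBS libraries although their slow-fibre sums overlap.

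The phosphatases are the counterweight that reactivates PDH. Pdp1 (NM_001033453, chr4:11958185-11966450, minus strand), the calcium-stimulated isoform of contracting muscle, stood at 25.5, 16.7 and 16.8 FPKM in LLC 1 to 3, against 35.6, 26.6 and 20.9 FPKM in PBS 1 to 3. LLC 1 lay above PBS 3, so the groups overlapped, while LLC 2 and LLC 3 were below every PBS library. The means were 19.7 ± 5.07 FPKM in LLC and 27.7 ± 7.41 FPKM in PBS muscle (SD, n = 3 each), with a log2 difference of -0.47 (SE 0.25, 95% interval -1.09 to 0.16; limma adjusted p = 0.845). Pdp2 (NM_001024606, chr8:104591472-104599025, plus strand), the calcium-insensitive isoform, was the lowest of the set at 1.35, 1.20 and 1.45 FPKM in LLC 1 to 3, against 1.14, 1.54 and 1.45 FPKM in PBS 1 to 3. Its log2 difference was -0.02 (SE 0.14, 95% interval -0.37 to 0.32). Between 220 and 330 read ends per library lay behind Pdp2.

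Pdpr (NM_198308, chr8:111094745-111135144, plus strand), the regulatory subunit that lowers the magnesium sensitivity of Pdp1, stood at 13.8, 8.94 and 17.7 FPKM in LLC 1 to 3, against 21.2, 10.5 and 6.87 FPKM in PBS 1 to 3. The groups overlapped, with a log2 difference of 0.15 (SE 0.43). The highest values of each group were those of LLC 3 and PBS 1, the reverse of the order of Pdk3. The part of marrow transcripts in the spread of Pdk3 and Pdpr was not tested. A noncoding gene overlaps each of the Pdk3 and Pdpr loci, which adds the same uncertainty as for Pdk2.

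Pdha1 (NM_008810, chrX:160122219-160138430, minus strand), the phosphorylated substrate, stood at 211, 186 and 214 FPKM in LLC 1 to 3, against 212, 184 and 166 FPKM in PBS 1 to 3. The groups overlapped, with means of 204 ± 15.6 FPKM in LLC and 188 ± 23.2 FPKM in PBS muscle (SD, n = 3 each) and a log2 difference of 0.12 (SE 0.14, 95% interval -0.22 to 0.46). Map3k15 and a noncoding gene overlap the Pdha1 locus.

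The order of levels placed Pdk4 first in LLC muscle, followed by Pdha1, Pdk2, Pdp1, Pdpr, Pdk1, Pdk3 and Pdp2. In PBS muscle the order was Pdha1, Pdk2, Pdp1, Pdk4, Pdpr, Pdk1, Pdk3 and Pdp2, so that Pdk4 was the 1 gene with another place relative to the other 7. In both groups neighbours in these orders overlapped over their 3 libraries except below Pdk2, below Pdk1 and below Pdk3.

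Summed over the 4 kinases, transcripts came to 356, 543 and 591 FPKM in LLC 1 to 3 and to 266, 210.2 and 187 FPKM in PBS 1 to 3. Pdk4 made up 43.4%, 62.6% and 62.5% of that sum in LLC 1 to 3, against 12.6%, 8.72% and 10.5% in PBS 1 to 3. Pdk2 made up 51.2%, 33.8% and 34.9% in LLC 1 to 3, against 82.1%, 83.4% and 78.6% in PBS 1 to 3. Pdk4 thus outnumbered Pdk2 per length in LLC 2 and LLC 3 and not in LLC 1, and Pdk2 prevailed in all PBS libraries. The ratio of summed kinases to summed phosphatases was 13.2, 30.4 and 32.3 in LLC 1 to 3 and 7.26, 7.47 and 8.37 in PBS 1 to 3. Kinase transcripts per Pdha1 transcript came to 1.69, 2.93 and 2.76 in LLC 1 to 3 and to 1.25, 1.14 and 1.12 in PBS 1 to 3. These shares and ratios describe transcripts, and they are given without a test because Pdk4 carries them.

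**Figure D3:**
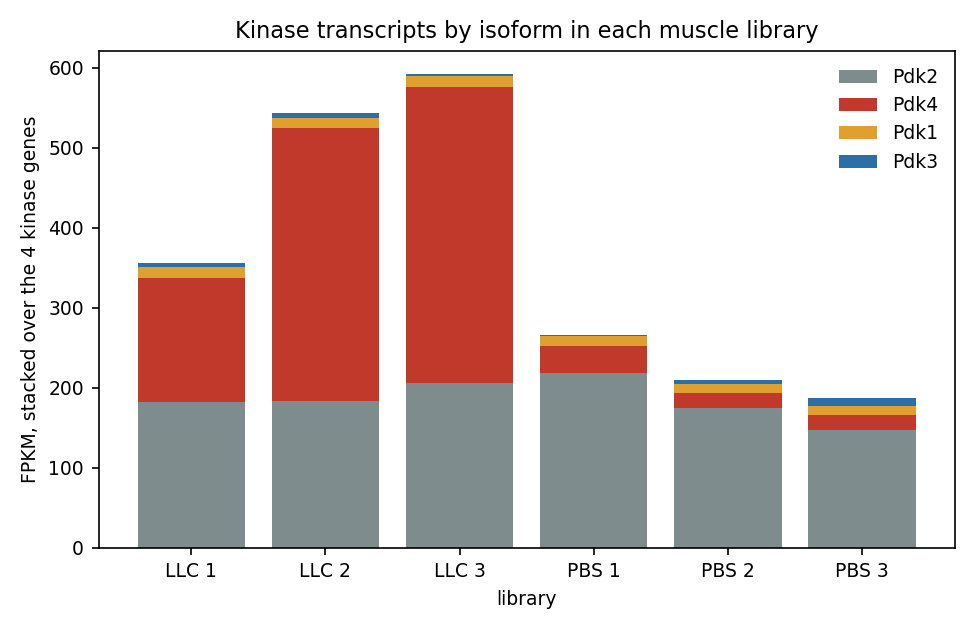
Stacked FPKM of the 4 kinase genes in each muscle library, LLC libraries left of PBS libraries. The grey Pdk2 part is of similar height in all 6 bars, from 147 to 206 FPKM apart from 219 FPKM in PBS 1, and the red Pdk4 part takes 43.4% to 62.6% of the LLC bars and 8.72% to 12.6% of the PBS bars.

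The genes with a profile most like that of Pdk4 over the 6 muscle libraries were Ankrd2, Acer2, Ucp3, Grrp1 and Csrp3. Likeness was the root-mean-square difference between centred log2(FPKM + 1) profiles among the 8221 genes averaging 5 FPKM or more. It came to 0.679, 0.711, 0.730, 0.798 and 0.831 in that order, where Pdk4's own profile has a root-mean-square of 1.81. Because Pdk4's profile holds a large gap between the groups, higher LLC values of these genes follow from the choice and are not a separate result. Ucp3, a mitochondrial carrier protein of muscle that rises when fat is oxidised, stood at 28.9, 46.6 and 48.4 FPKM in LLC 1 to 3, against 12.4, 8.35 and 6.14 FPKM in PBS 1 to 3. Like Pdk4 it was lowest in LLC 1 and highest in PBS 1 within the groups. Ankrd2 and Csrp3 encode stretch-responsive proteins of the sarcomere that are abundant in slow muscle. Ankrd2 stood at 68.2, 219 and 136 FPKM in LLC 1 to 3, against 23.3, 25.8 and 22.8 FPKM in PBS 1 to 3. Acer2, which encodes a Golgi ceramidase, averaged 10.3 ± 4.14 FPKM in LLC and 1.47 ± 0.306 FPKM in PBS muscle (SD, n = 3 each). Grrp1 ranged from 22.2 to 28.4 FPKM in LLC and from 4.12 to 5.08 FPKM in PBS muscle.

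Slow-fibre markers, with 6 of 6 genes found and none at 0, summed to 1035, 585 and 279 FPKM in LLC 1 to 3 and to 485, 99.5 and 117 FPKM in PBS 1 to 3. LLC 1 and LLC 2 were above every PBS library, but LLC 3, with the highest Pdk4 value, had fewer slow-fibre transcripts than PBS 1. Of the 6 genes 1, the slow myosin Myh7, was separate with LLC higher, against 9.5% of all genes. Myh7 stood at 84.0, 56.5 and 27.8 FPKM in LLC 1 to 3, against 25.9, 5.14 and 3.36 FPKM in PBS 1 to 3. The groups of the other slow-fibre genes overlapped. Endothelial markers, with 4 of 4 genes found, summed to 156, 167 and 195 FPKM in LLC 1 to 3 and to 84.9, 86.8 and 71.5 FPKM in PBS 1 to 3. These sums did not overlap, and 3 of the 4 genes were separate with LLC higher, against 9.5% of all genes. The fourth, Kdr, was at 10.3, 8.20 and 10.8 FPKM in LLC 1 to 3, against 12.4, 12.2 and 9.77 FPKM in PBS 1 to 3, with overlapping groups. Tendon markers summed the other way, at 49.8, 13.6 and 4.25 FPKM in LLC 1 to 3 and 102, 106 and 74.7 FPKM in PBS 1 to 3. Of the tendon genes above the filter, 2 were separate with LLC lower, Tnmd and Chad, against 3.94% of all genes. The groups of Scx overlapped. Fat markers summed to 72.5 to 359 FPKM in LLC and 87.7 to 135 FPKM in PBS muscle, with Ucp1 under 1 FPKM throughout. The part of these tissues in the Pdk4 difference was not tested.

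Around the kinases, none of the other subunits of the PDH complex passed the threshold. Of 4 such subunits tested 0 were above and 4 below zero, with a median log2 difference of -0.13, against 0.01 over all genes. The E2 core gene Dlat averaged 40.9 ± 3.87 FPKM in LLC and 45.7 ± 3.58 FPKM in PBS muscle (SD, n = 3 each, here and for the genes below), and the groups overlapped for all 4. Pdha2, the testis E1 alpha gene, was below the filter. Among 7 tested genes listed for lipoate and thiamine, cofactors of PDH, 4 were above and 3 below zero (median 0.09). Those above zero include Lipm, which encodes a lipase and is not a cofactor gene, with a log2 difference of 1.34. Lipm stood at 6.18, 0.258 and 2.04 FPKM in LLC 1 to 3, against 0, 0.128 and 0.515 FPKM in PBS 1 to 3. The groups of 1 listed gene, the lipoate synthase Lias, did not overlap. Lias averaged 13.2 ± 0.317 FPKM in LLC and 12.4 ± 0.568 FPKM in PBS muscle. Of 7 tested genes of the related 2-oxoacid dehydrogenases, 2 were above and 5 below zero (median -0.13). Dlst, the E2 gene of the 2-oxoglutarate enzyme, averaged 84.1 ± 3.53 FPKM in LLC and 93.5 ± 4.99 FPKM in PBS muscle, with groups that did not overlap. Lias and Dlst are 1 of 7 genes each, beside 9.5% of all genes with LLC higher and 3.94% with LLC lower without overlap. Ppm1k, the phosphatase of the branched-chain enzyme, averaged 2.33 ± 0.420 FPKM in LLC and 2.64 ± 0.234 FPKM in PBS muscle.

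Genes of pyruvate and lactate transport and metabolism had 4 of 12 members above and 8 below zero, with a median of -0.08. The groups did not overlap for 2 of them, both lower in LLC muscle, where 3.94% of all genes had such groups. Slc16a3, the lactate exporter MCT4 of fast fibres, averaged 75.9 ± 9.52 FPKM in LLC and 109.5 ± 11.5 FPKM in PBS muscle, with a log2 difference of -0.53 (SE 0.15; limma adjusted p = 0.427). Mpc1, a subunit of the mitochondrial pyruvate carrier, averaged 88.3 ± 5.35 FPKM in LLC and 105 ± 4.35 FPKM in PBS muscle, with a log2 difference of -0.25 (SE 0.10; limma adjusted p = 0.668). Of 10 genes of glucose uptake and trapping 5 were above and 5 below zero (median 0.03), and 2 had groups without overlap, both higher in LLC muscle, where 9.5% of all genes did. Txnip, which restrains glucose uptake, ranged from 458 to 496 FPKM in LLC and from 215 to 284 FPKM in PBS muscle. Irs2, an insulin receptor substrate, averaged 5.61 ± 0.639 FPKM in LLC and 3.92 ± 0.489 FPKM in PBS muscle.

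PPAR target genes of fatty acid use, known to move with Pdk4 in fasting, were the list with the most members on the LLC side. Of 16 genes 15 were above zero, and in all 15 the LLC libraries lay above the PBS libraries, against the 9.5% of all genes given above. The median log2 difference was 0.78. An unadjusted limma p under 0.05 with LLC higher was found for 14, against 5.82% of all genes, but 0 passed after adjustment over all genes. Plin5, a lipid droplet protein of oxidative tissue, averaged 9.45 ± 1.26 FPKM in LLC and 3.28 ± 0.446 FPKM in PBS muscle (log2 difference 1.28, SE 0.145). Fabp3, the fatty acid binding protein of heart and muscle, averaged 348 ± 54.9 FPKM in LLC and 105 ± 25.5 FPKM in PBS muscle (log2 difference 1.73, SE 0.22). Mlycd, the malonyl-CoA decarboxylase that relieves the block on fatty acid entry, averaged 44.2 ± 4.80 FPKM in LLC and 21.7 ± 2.43 FPKM in PBS muscle. Acadl, a dehydrogenase of long-chain beta-oxidation, ranged from 147 to 154 FPKM in LLC and from 79.7 to 93.9 FPKM in PBS muscle. The 1 gene below zero was Ucp2, at 75.0, 137 and 61.8 FPKM in LLC 1 to 3 and 28.8, 218 and 347 FPKM in PBS 1 to 3, with its lowest values in LLC 3 and PBS 1. The list shares Ucp3 with the profile search and was chosen with results of these data known, so its direction is not independent evidence.

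Transcription factors known to act on Pdk genes were mixed, with 14 of 22 above and 8 below zero and a median of 0.12. Groups without overlap were found for 6, all with LLC higher, where 9.5% of all genes had such groups. Hif1a, the oxygen-regulated factor that acts on Pdk1, averaged 17.6 ± 1.81 FPKM in LLC and 10.6 ± 0.633 FPKM in PBS muscle (log2 difference 0.69, SE 0.12; limma adjusted p = 0.199). Stat3, a factor downstream of interleukin signals, averaged 31.2 ± 4.02 FPKM in LLC and 19.4 ± 1.29 FPKM in PBS muscle. Epas1, a HIF factor abundant in endothelium, averaged 32.4 ± 2.39 FPKM in LLC and 22.3 ± 3.32 FPKM in PBS muscle. Klf15, a glucocorticoid-induced factor, averaged 17.6 ± 2.63 FPKM in LLC and 13.1 ± 1.02 FPKM in PBS muscle. Of the 7 pathway lists 0 held a gene that passed over all genes.

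In the myotubes, the ATAC comparison asked whether chromatin at these loci opened or closed in C26 medium. Values are tags per peak scaled to 10000000 tags per library. Tags in peaks made up 13.0%, 12.0% and 13.5% of all tags in C26 medium 1 to 3 and 27.0%, 13.1% and 17.9% in controls 1 to 3. Control 1 stood apart by this share. The median log2 difference over all peaks was -0.54 as deposited, and it was -0.02 after median-of-ratios scaling. Differences are therefore given on both scales and read against these medians. Of 6 myotube genes checked, 2 had a peak within 1000 bp of the start, Des and Myod1, and neither passed the threshold (limma adjusted p = 0.208 for Des and limma adjusted p = 0.842 for Myod1, scaled).

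As deposited, 1 of the 19 peaks passed the threshold, with lower values in C26 medium, and 0 were higher. Among 37358 peaks tested 3.03% passed, 1.15% higher and 1.88% lower. After scaling, 8 of the 19 peaks passed, 7 higher and 1 lower, where 29.8% of all peaks did, 17.1% higher and 12.7% lower. Groups did not overlap as deposited for 2 peaks with C26 medium higher and 4 with C26 medium lower, against 3.24% and 34% of all peaks, 37.2% together. After scaling this held for 7 higher and 2 lower peaks, against 21.7% and 19.4%, 41.1% together.

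Of the 9 peaks within 1000 bp of a start, 1 passed after scaling, the Pdk4 promoter peak. It covers chr6:5496003-5496834 in mm10, with its centre 140 bp before the start, and contains the Pdk4 window printed above. Its deposited values were 77.7, 55.5 and 77.5 tags in C26 medium 1 to 3 and 118, 56.4 and 70.7 tags in controls 1 to 3, with overlapping groups and a log2 difference of -0.16 (SE 0.36; limma adjusted p = 0.746). After scaling they were 92.3, 70.7 and 86.9 tags in C26 medium 1 to 3 and 65.3, 66.1 and 60.7 tags in controls 1 to 3. Every C26 medium library then lay above every control, C26 medium 2 by the least. The scaled difference was 0.37 (SE 0.11, 95% interval 0.15 to 0.58; limma adjusted p = 0.00809), a ratio of 1.30. Among start-proximal peaks of all genes 2.51% were called higher after scaling and 21.2% lower, and their median was -0.16. Without C26 medium 1 the scaled Pdk4 difference was 0.29 and its limma adjusted p 0.0659, so the call was lost. The second Pdk4 peak, 86994 bp before the start, did not pass on either scale, with -0.66 as deposited and -0.16 scaled.

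**Figure D4:**
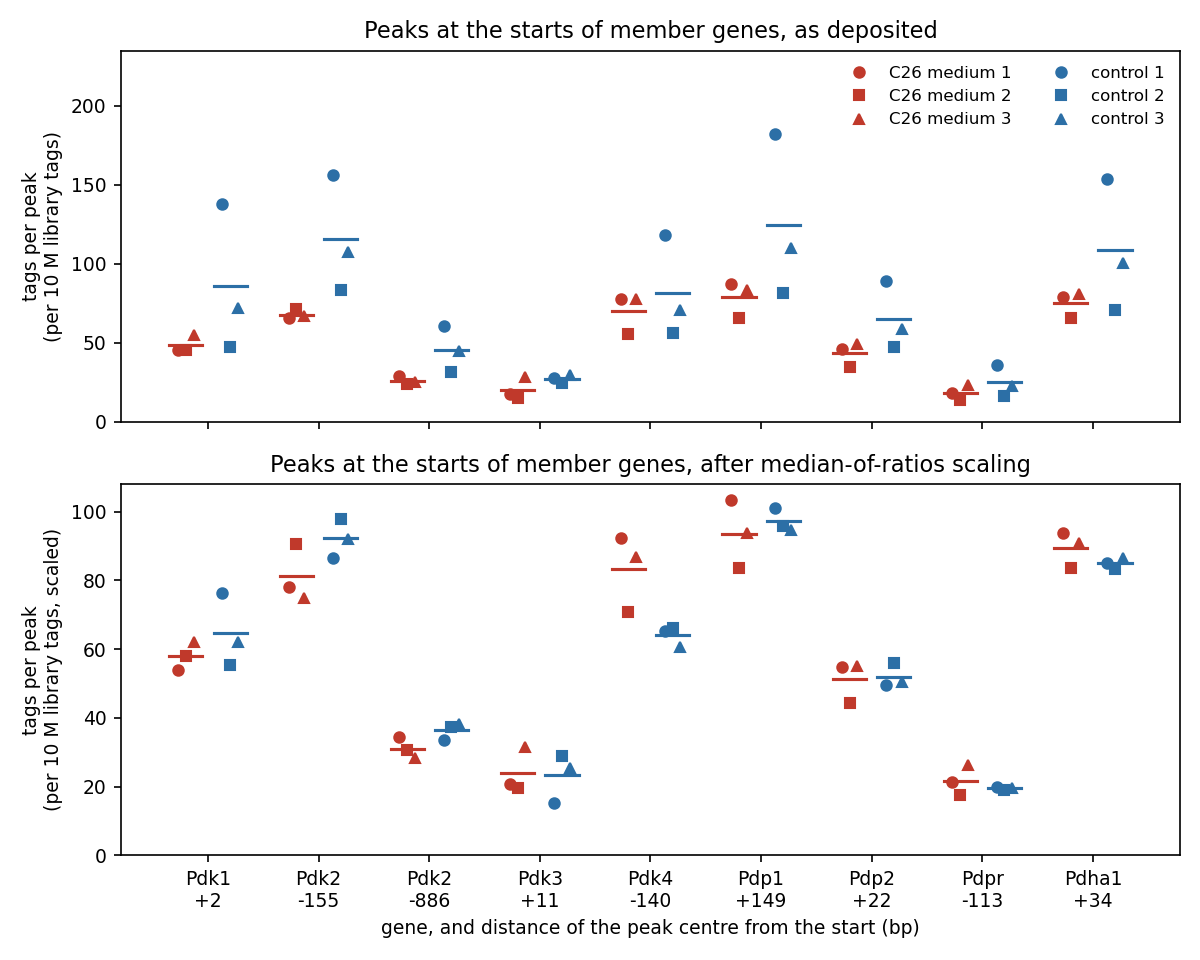
Tags in the 9 peaks within 1000 bp of a start, for C26 medium libraries (red, left of each pair) and control libraries (blue), as deposited above and after median-of-ratios scaling below; bars are group means. As deposited control 1 is the highest point in 8 of the 9 peaks, the exception being Pdk3; after scaling the Pdk4 peak has all C26 medium points, from 70.7 to 92.3 tags, above the controls, from 60.7 to 66.1 tags.

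The other kinase promoters did not pass. The Pdk2 peak centred 155 bp before its start had 78.0, 90.6 and 74.9 scaled tags in C26 medium 1 to 3 and 86.6, 97.8 and 92.1 in controls 1 to 3. As deposited its groups were separate, with C26 medium lower, and after scaling they overlapped; the log2 differences were -0.71 (SE 0.35) and -0.18 (SE 0.10), with a limma adjusted p of 0.156 as deposited and of 0.167 scaled. The neighbouring Pdk2 peak at 886 bp before the start gave -0.74 and -0.22. The Pdk1 start peak gave -0.67 as deposited and -0.15 scaled, and that of Pdk3 -0.45 and 0.06. Those of the phosphatases gave -0.59 and -0.06 for Pdp1, -0.55 and -0.02 for Pdp2 and -0.38 and 0.14 for Pdpr. The median over all start-proximal peaks was -0.69 as deposited and -0.16 scaled. The deposited annotation assigns the Pdp1 peak to the start of the noncoding gene 1700123M08Rik, so it cannot be assigned to Pdp1 alone. The Pdha1 start peak gave -0.46 as deposited and 0.07 scaled.

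Away from the starts, 10 peaks carried the names of the 8 genes, 6 of them higher and 1 lower after scaling. Among all such peaks 22.98% were called higher and 9.27% lower. A peak is named for the nearest start, and nothing here ties it to the gene's transcription. At Pdha1 the peak chrX:160164440-160165292, 26436 bp before the start, was called in 3 of the 3 C26 medium peak lists and in 0 of the control lists. It had 39.8, 22.6 and 28.6 deposited tags in C26 medium 1 to 3 and 19.2, 7.76 and 11.9 in controls 1 to 3. All C26 medium libraries lay above the controls on both scales. The log2 difference was 1.21 (SE 0.42; limma adjusted p = 0.0745) as deposited and 1.72 (SE 0.22; limma adjusted p = 1.74e-08) scaled. A nearer Pdha1 peak, 10486 bp before the start, gave 0.51 (limma adjusted p = 0.371) as deposited and 1.02 (limma adjusted p = 0.000390) scaled.

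Of the peaks downstream of Pdp1, 3 were higher after scaling. The farthest, chr4:11884937-11885262 at 80614 bp past the start, had 14.1, 14.6 and 12.4 deposited tags in C26 medium 1 to 3 and 10.7, 4.05 and 3.46 in controls 1 to 3. Its groups were separate on both scales, and its log2 difference was 1.19 (limma adjusted p = 0.106) as deposited and 1.67 (limma adjusted p = 7.34e-05) scaled. The peaks at 69309 and 47124 bp gave 0.20 and 0.37 as deposited, neither called, and 0.72 and 0.87 scaled (limma adjusted p = 0.000101 at 69309 bp and 0.0137 at 47124 bp). Without control 1 the scaled peak at 47124 bp had a limma adjusted p of 0.0664. A peak 69086 bp past the start of Pdk3 gave 0.39 as deposited and 0.87 scaled (limma adjusted p = 0.536 and 0.0266); without C26 medium 1, control 1 or control 3 the scaled p was 0.166, 0.0642 or 0.0848. Quantile normalization also ended this call, with 0.65 and a limma adjusted p of 0.103.

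The 1 peak called on both scales lay near Pdp2 and was lower in C26 medium. It covers chr8:104602770-104603009, 11417 bp past the Pdp2 start and inside the last intron of Cdh16, and was found in 1 of 3 C26 medium lists and 3 of 3 control lists. It had 6.63, 8.33 and 9.34 deposited tags in C26 medium 1 to 3 and 34.0, 19.9 and 23.2 in controls 1 to 3, so every C26 medium library was below every control. The log2 difference was -1.53 (SE 0.43; limma adjusted p = 0.0233) as deposited and -1.03 (SE 0.25; limma adjusted p = 0.00137) scaled. The deposited call was lost without C26 medium 1, 2 or 3 or control 3 (limma adjusted p = 0.385, 0.240, 0.198 and 0.235), whereas the scaled call held in all 6 such fits. Beside the distal Pdk4 peak, 2 others were not called on either scale. The peak 20784 bp before Pdk1, in an intron of Itga6, gave -0.44 as deposited and 0.01 scaled, and the peak 20544 bp before Pdp2 gave -0.90 and -0.41.

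**Figure D5:**
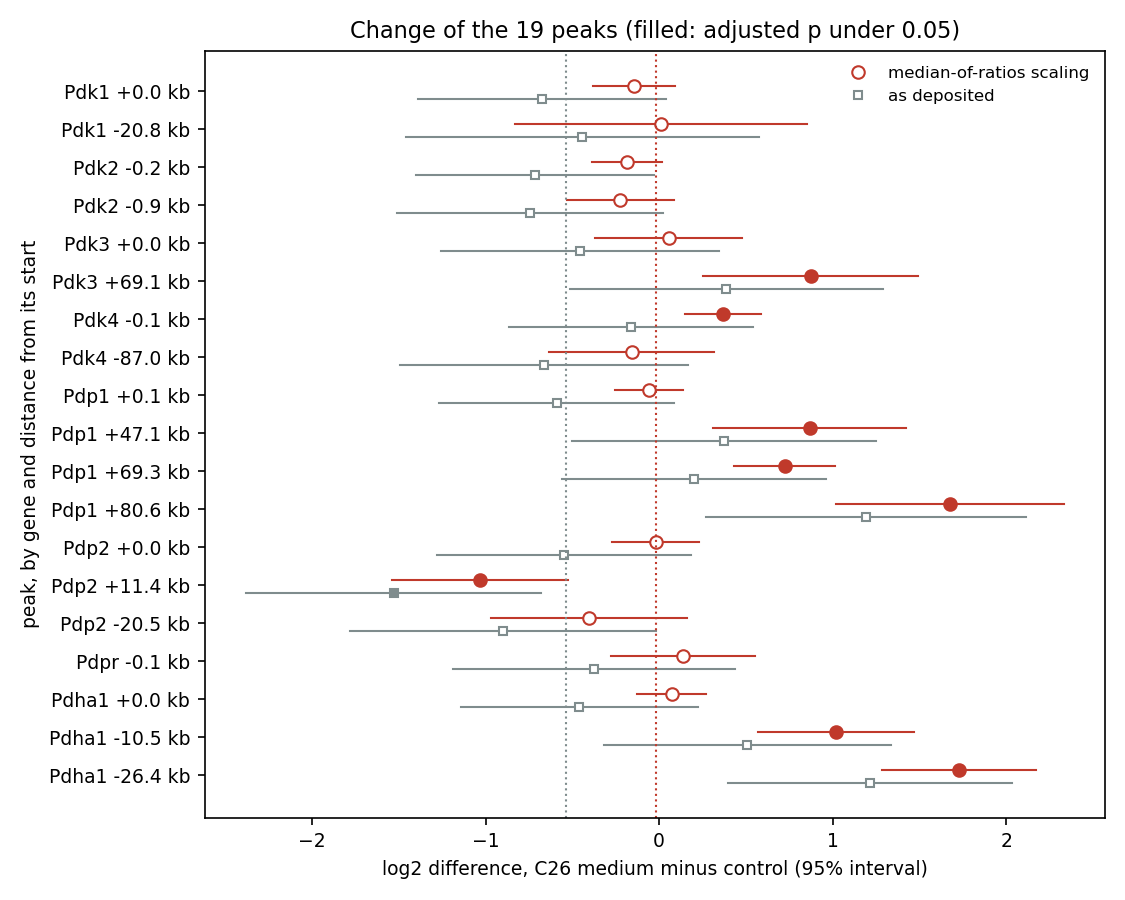
Log2 difference, C26 medium minus control, of all 19 peaks with 95% limma intervals, as deposited (grey squares) and after median-of-ratios scaling (red circles); filled symbols passed the threshold and dotted lines mark the medians of all peaks, -0.54 and -0.02. The Pdp2 peak at 11.417 kb is filled on both scales, and 7 peaks to the right of zero are filled after scaling alone.

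The promoters of the pathway lists held 0 peaks called higher after scaling, out of 57 list genes with a start peak. The share called higher over all start-proximal peaks was itself low, at 2.51%. Called lower were Slc19a2, a thiamine transporter, Pck2 and Slc16a1 of the pyruvate and lactate list, Ogdh of the 2-oxoacid complexes, Irs1, and 6 transcription factors. These were Myc, Nr3c1, Rxrb, Ppard, Rxra and Esrra. Among start-proximal peaks of all genes 21.2% were called lower, so these counts per list, at most 6 of 18, are read beside that share and single out no gene. As deposited these promoters were not called, except that of Irs1. The RNA and the chromatin of these genes were measured in different systems, so the higher Pdk4 transcript level of LLC muscle and the Pdk4 promoter signal of C26 medium myotubes stand side by side without a joint test.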

How the data were processed

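RNA-seq of muscle and ATAC-seq of C2C12 myotubes were analysed, with 3 libraries per group and groups taken from the treatment labels. The RNA values are FPKM that the authors made with HOMER from exons of RefSeq genes in mm10, counting both strands and keeping 1 transcript per gene, per the file headers. The ATAC values are a signal, tags per merged peak scaled to 10000000 tags per library with HOMER, per the file headers. The submitters' processing notes also name HISAT2, Bowtie2, MACS2 and DESeq2; versions and read filters are not given in the sources. Genes with overlapping exons cannot be separated in such FPKM, and scaling to all tags makes ATAC values follow the share of tags in peaks.

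From these, limma 3.58.1 in R 4.3.3 tested log2(value + 1) with a mean-dependent prior, keeping genes that averaged 1 FPKM or more and peaks that averaged 5 tags or more. P-values were adjusted with the Benjamini-Hochberg method over all genes or peaks, with a threshold of 0.05. Fold changes on this scale understate those of low genes. The ATAC fit was repeated after median-of-ratios scaling. Whole reads were recovered from both tables and were tested with edgeR 4.0.16 (quasi-likelihood, TMM) as an alternative. Of the low values checked, 100% lay within 0.1 of a whole number. In the RNA these came from genes under 3000 bp with at most 20 read ends, at a depth itself found from such steps. Pdk4, at 3440 bp, was not among them. Counts are read ends, not molecules, so depth limits the precision of low genes. Libraries of 1 group differed by more than sampling noise. Replicate numbers were checked and showed no steady pairing of the libraries, though the check cannot exclude one. The fits were tested on simulated data, in which both missed many of the changes put in. A gene or peak that did not pass may therefore still differ. Python 3.11.15 made the summaries and figures.

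The members, gene lists and rules were chosen with earlier results of these data known. The rule named all 8 genes, all Pdk4 peaks, for the other genes the peak nearest the start and up to 3 more by p, up to 4 genes per pathway list by p, and the 5 genes most like Pdk4. Promoter sequences came from RefSeq and matched 7 of the 8 genes by symbol; Pdp1 had no entry. No per-sample column was left out.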

Additional observations from a re-analysis of the deposited data

How the results depend on the processing

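The muscle count of called genes was 0, and 1, Grrp1, with a minimum mean of 5 FPKM, by TPM, after quantile normalization or after median-of-ratios scaling; it was 0 in all 6 fits without a library. The difference of Pdk4 kept its direction in every setting run, and its adjusted limma p stayed above 0.05. The log2 ratio of Pdk4 to Pdk2 was 3.20 to 3.76 without a library. Replicate numbers showed no steady pairing: same-numbered deviations correlated at -0.09, 0.60 and -0.60 in muscle. Those of LLC 3 and PBS 1, both poor in marrow transcripts, correlated at 0.63, so this check cannot exclude a pairing. With the replicate block the ratio was 3.40, Pdk4 had an adjusted p of 0.642, and 1071 peaks were called.

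The peak count was 1132 as deposited, 471 with a minimum mean of 20 tags, 11120 after median-of-ratios scaling, 11021 after quantile normalization, 2602 with no trend, 11360 by edgeR and 10969 with median-of-ratios scaling and the replicate block. Without a library it was 123 to 20607 as deposited, the highest without control 2 and the lowest without C26 medium 1, and 8638 to 9661 scaled. The scalings differ by the share of tags in peaks; which one is right was not tested.

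Some directions turned. In muscle, Pdk2 was -0.020 with quantile normalization (-0.039 to 0.25 without a library) and Pdpr -0.027 with edgeR (-0.18 to 0.56). Pdp2 was 0.012 as TPM (-0.095 to 0.027), and Pdk3 was -0.72 to 0.29 without a library. The main difference of each of these genes was smaller than its SE. In the myotubes the median of all peaks moved from -0.54 as deposited to -0.02 after median-of-ratios scaling. That scaling, with or without the block, turned the peak 20784 bp before Pdk1 (0.010; edgeR 0.074; without a library -0.68 to -0.29 as deposited and -0.20 to 0.17 scaled) and the start peaks of Pdk3 (0.055; edgeR 0.12; -0.70 to -0.28 and -0.21 to 0.23), Pdk4 (0.37; edgeR 0.38; quantile 0.41; -0.39 to 0.13 and 0.29 to 0.48), Pdpr (0.14; edgeR 0.18; quantile 0.017; -0.64 to -0.088 and 0.0025 to 0.27) and Pdha1 (0.071; edgeR 0.079; quantile 0.14; -0.73 to -0.17 and 0.040 to 0.12). The Pdp1 start peak was 0.019 with quantile normalization (-0.85 to -0.28 and -0.13 to 0.022 without a library), and the Pdp2 start peak 0.0012 with edgeR (-0.75 to -0.30 and -0.072 to 0.084). Without a library the peak 86994 bp before Pdk4 was -0.89 to -0.40 as deposited and -0.36 to 0.048 scaled, and that 69309 bp past the Pdp1 start was -0.0028 to 0.43 as deposited and 0.67 to 0.77 scaled. Beyond the shift of the median, the cause was not tested. Scaled leave-one-out fits and the scaled block were added after seeing the data. With 3 libraries a group, the exact test of the ratio cannot fall below 0.10.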
